A study of Mus musculus with 2 samples.

Results

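The antiviral effector genes of the type I interferon response were followed in leukocytes of early mouse melanomas, as 42 genes picked by symbol from the 31053 genes of the feature table. The list holds the Ifit genes (*Ifit1*, *Ifit2*, *Ifit3*, *Ifit3b* and *Ifit1bl1*), the Oas genes (*Oas1a*, *Oas1g*, *Oas2*, *Oas3*, *Oasl1* and *Oasl2*), the Ifi200 genes *Ifi204* and *Ifi205* and the Ifitm genes (*Ifitm1*, *Ifitm2*, *Ifitm3* and *Ifitm6*). It also holds the Slfn genes (*Slfn1*, *Slfn4*, *Slfn5* and *Slfn8*), the nucleic acid sensors *Ifih1*, *Ddx58*, *Dhx58* and *Zbp1*, the Isg15 system (*Isg15*, *Usp18* and *Herc6*) and 14 other effectors (*Isg20*, *Rsad2*, *Mx1*, *Ifi44*, *Ifi27l2a*, *Ifi35*, *Cmpk2*, *Rtp4*, *Xaf1*, *Trim30a*, *Phf11d*, *Parp14*, *Bst2* and *Samhd1*). All 42 were listed and had UMIs in both libraries. The rule names genes and uses no measured value.

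The leukocytes came from *Braf*-mutant melanomas whose cells lacked *Ptgs*, the COX genes of prostaglandin synthesis, in C57BL/6 hosts of 8 weeks. Control hosts were untreated, and NK cell-depleted hosts received 200 µg of anti-NK1.1 (clone PK136) and 30 µg of anti-asialo GM1 on days 0 and 2 of tumor growth, to rid them of natural killer (NK) cells. The tumors were harvested on day 4 and pooled by group, live CD45+ cells were sorted, parental *Braf*-mutant melanoma cells were spiked in, and each group gave 1 droplet library of 3′ transcript ends. Both groups shared the *Ptgs*-/- tumor, although the genotype field of both samples read wildtype tumor cells where the titles and the design named the knockout. Asialo GM1 is not found on NK cells alone, and a group is 1 library of pooled animals. A difference between the groups therefore has no replicate check, and the values below describe a pair of libraries.

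Type I interferons are the family of IFN-β and the IFN-α proteins, which signal through the receptor IFNAR and the kinases JAK1 and TYK2 to a complex of transcription factors. That complex binds the interferon-stimulated response element (ISRE) in promoters and switches on many genes, among them the antiviral effectors studied here, whose products sense foreign nucleic acid, block its translation, degrade it or stop viruses at membranes. Type II interferon, IFN-γ, which NK and T cells make, acts at another element (GAS) and shares part of these targets.

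The promoters show the shared element and where the family members part. RefSeq promoter windows (GRCm38.p6, 250 bases before to 50 after a transcript start) were matched to 33 of the 42 members by symbol. An ISRE core, searched as TTTCNNTTTC and its reverse complement GAAANNGAAA, lay in the windows of 18 of these 33 genes (54.5%), against 3.44% of all 32841 windows and 3.99% of all 27018 genes. The GAS core TTCNNNGAA lay in those of 8 (24.2%), against 8.3% of windows and 9.55% of genes, and 10 genes had neither. Not matched were *Oas2*, *Ifi204*, *Dhx58*, *Zbp1*, *Usp18*, *Mx1*, *Ifi27l2a*, *Rtp4* and *Parp14*. The 180 bases just before the start are printed below for 9 members on which the results below turn, 5′ to 3′ in the direction of the gene, with ISRE matches in capitals. The last 2 of them, *Oasl2* and *Ifitm6*, had lower levels in control than in NK cell-depleted monocyte/macrophage-like cells, and the other 7 higher ones, with clusters pooled. Over all matched members the ratio was above 1 for 12 of 18 with an ISRE match and for 6 of 15 without, so both kinds lay on both sides, for example *Ifit2* and *Isg20*, higher without a match, and *Trim30a* and *Oas3*, lower with one. With the same weight for each cluster, *Oasl2* and *Ifitm6* were no longer lower, at log2 ratios of 0.13 and 0.095.
Ifit1: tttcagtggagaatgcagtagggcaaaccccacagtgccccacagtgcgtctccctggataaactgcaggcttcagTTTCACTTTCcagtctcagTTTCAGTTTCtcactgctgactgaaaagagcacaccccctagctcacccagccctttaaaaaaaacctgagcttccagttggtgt
Ifit1bl1: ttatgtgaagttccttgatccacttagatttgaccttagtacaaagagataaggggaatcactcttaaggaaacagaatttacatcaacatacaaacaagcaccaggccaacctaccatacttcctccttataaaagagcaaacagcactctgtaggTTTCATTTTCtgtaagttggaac
Ifit3: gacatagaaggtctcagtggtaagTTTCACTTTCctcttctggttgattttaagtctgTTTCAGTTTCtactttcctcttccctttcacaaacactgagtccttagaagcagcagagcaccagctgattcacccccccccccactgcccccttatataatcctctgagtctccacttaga
Ifit3b: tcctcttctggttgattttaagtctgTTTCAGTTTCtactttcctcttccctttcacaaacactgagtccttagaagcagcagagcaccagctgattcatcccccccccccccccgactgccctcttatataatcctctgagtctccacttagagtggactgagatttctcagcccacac
Isg15: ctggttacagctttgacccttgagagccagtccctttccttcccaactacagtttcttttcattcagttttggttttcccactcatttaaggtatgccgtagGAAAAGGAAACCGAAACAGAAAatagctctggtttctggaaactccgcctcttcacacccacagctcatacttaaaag
Oas1a: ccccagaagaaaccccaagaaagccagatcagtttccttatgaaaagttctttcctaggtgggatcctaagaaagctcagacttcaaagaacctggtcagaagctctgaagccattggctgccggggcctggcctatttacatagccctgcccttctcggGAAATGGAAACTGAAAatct
Oas1g: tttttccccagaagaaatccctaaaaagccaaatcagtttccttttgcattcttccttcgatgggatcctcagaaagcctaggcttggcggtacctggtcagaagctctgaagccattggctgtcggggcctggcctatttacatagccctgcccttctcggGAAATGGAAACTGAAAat
Oasl2: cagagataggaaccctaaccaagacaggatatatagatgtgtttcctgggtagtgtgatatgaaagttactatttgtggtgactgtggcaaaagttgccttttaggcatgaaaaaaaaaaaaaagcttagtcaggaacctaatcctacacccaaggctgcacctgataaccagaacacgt
Ifitm6: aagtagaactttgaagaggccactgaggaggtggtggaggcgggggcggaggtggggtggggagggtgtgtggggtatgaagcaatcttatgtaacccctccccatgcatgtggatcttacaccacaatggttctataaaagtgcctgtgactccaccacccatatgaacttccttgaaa

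These stretches are chr19:34640709-34640888 (plus strand) for *Ifit1*, chr19:34599428-34599607 (minus) for *Ifit1bl1*, chr19:34583349-34583528 (plus) for *Ifit3* and chr19:34607777-34607956 (plus) for *Ifit3b*, 4 neighbors on chromosome 19. The Oas genes lie on chromosome 5, the Ifi200 genes on chromosome 1, the Ifitm genes on chromosome 7 and the Slfn genes on chromosome 11. The *Isg15* stretch is chr4:156200819-156200998 (minus), that of *Oas1a* chr5:120907526-120907705 (minus), that of *Oas1g* chr5:120887614-120887793 (minus), that of *Oasl2* chr5:114896754-114896933 (plus) and that of *Ifitm6* chr7:141016893-141017072 (minus). *Ifit1* has its 2 matches 104 and 85 bases before the start, and the 3 matches of *Isg15* overlap between 78 and 66 bases before it. The matches of *Oas1a* and *Oas1g* lie within 20 bases of the start. Like *Ifit3*, *Ifit3b* has 2 matches in its full window, and the printed stretch cuts off 1 of them. *Ifit1bl1* has 2 windows. The stretch printed belongs to a transcript start inside the gene, and the other window holds 1 match as well. The *Ifit3* and *Ifit3b* stretches share a run of 99 identical bases and those of *Oas1a* and *Oas1g* one of 56, whereas *Ifit1* and *Ifit1bl1* share no run over 9. Such copies also share transcript sequence, so reads of *Ifit3* and *Ifit3b*, and of *Oas1a* and *Oas1g*, may be split or lost between them, and their separate values are uncertain. *Oasl2* and *Ifitm6* are among the 15 matched members with no ISRE match in the window, which says nothing of a site elsewhere. The matched Ifit members had a match in 4 of 5 cases (all but *Ifit2*), the Oas members in 3 of 5 and the Ifitm members in 2 of 4.

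After the cell filter of the study (between 500 and 15000 UMIs, between 200 and 4000 genes, and mitochondrial transcripts up to 10%), 9798 of 11651 cells remained. A unique molecular identifier (UMI) marks 1 captured transcript. The control library kept 5292 cells with 24810009 UMIs and the NK cell-depleted library 4506 cells with 23245982 UMIs, at medians of 4170 and 4893 UMIs per cell, and 5 cell barcodes occurred in both. Cells were clustered without the members, and 17 of 23 clusters were named from fixed markers. The monocyte/macrophage-like class held 3249 control and 3034 NK cell-depleted cells in 10 clusters. The neutrophil-like class held 367 and 462 cells, the conventional dendritic cell (DC)-like class 358 and 377, the T-like class 285 and 224, the migratory DC-like class 65 and 55 and the B-like class 57 and 37. NK-like cells numbered 543 in the control library and 1 in the NK cell-depleted library. Unnamed clusters held 6.95% and 7.01% of cells. One of these, led by *Cyr61* and *Prkg2*, had few transcripts of *Ptprc*, the CD45 gene (39.9 and 19.7 CPM). Its members' level is given below for comparison, and in it free RNA and the cells' own transcripts cannot be told apart. Doublets were kept.

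Among the named classes the members had their highest summed levels in neutrophil-like and monocyte/macrophage-like cells. Levels are UMIs summed over the cells of a class and scaled to counts per 1000000 (CPM), and values in pairs give the control library first. Summed over the 42 members, neutrophil-like cells held 14048 and 10604 CPM, monocyte/macrophage-like cells 7301 and 7629.6 CPM and conventional DC-like cells 5728 and 5567 CPM. Migratory DC-like cells held 4073 and 4178 CPM, T-like cells 4021 and 2212 CPM, B-like cells 2206 and 1776 CPM and control NK-like cells 1339.9 CPM. The *Ptprc*-poor cluster held 259 and 322 CPM at medians of 1670 and 2034 UMIs per cell, against 5234 and 5563.5 in monocyte/macrophage-like cells. Neutrophil-like cells were shallower still, at medians of 1161 and 1298.5 UMIs per cell. Their lead is one of the share of UMIs and does not hold per cell. In the control library 367 of these cells gave 6356 member UMIs, and 3249 monocyte/macrophage-like cells gave 137076. By the mean CPM of both libraries (control alone for NK-like cells), 22 members were highest in neutrophil-like cells, 12 in monocyte/macrophage-like, 4 in migratory DC-like, 2 in conventional DC-like, and 1 each in T-like and NK-like cells. Some of these leads over the next class were small, for example 1.01-fold for *Slfn5* and 1.07-fold for *Ifitm6*. *Ifi27l2a* and *Ifitm3* alone gave 36.2% of the 334619 UMIs of the members, and a single member gave from 161 to 61485.

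**Figure D1:**
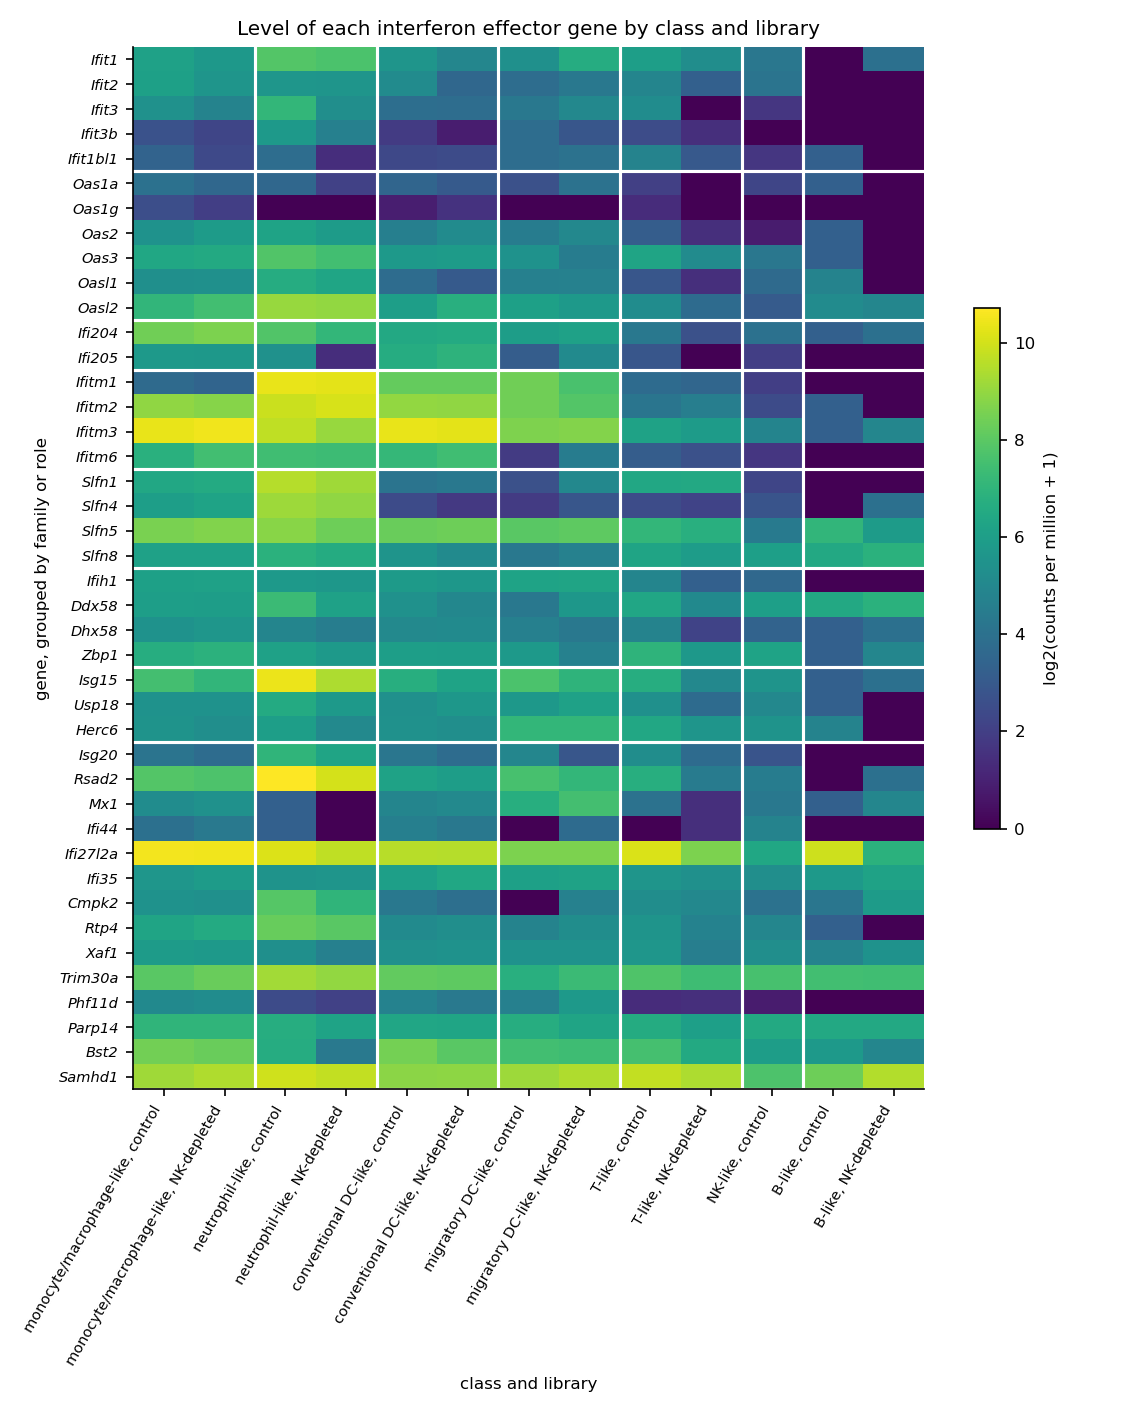
Levels of the 42 members as log2(CPM + 1) (color) by gene (rows) and by class and library (columns). Neutrophil-like cells stand out for Rsad2, Isg15, Slfn1, Slfn4 and Ifitm1, monocyte/macrophage-like cells for Ifi204 and Ifi27l2a, and NK-like cells are low for most genes.

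The pattern by cell type was not the same within a family. *Ifitm3*, which keeps enveloped viruses from fusing with endosomes, was highest in monocyte/macrophage-like cells (1319 and 1440.1 CPM) and close to that in conventional DC-like cells (1308 and 1253 CPM), and lower in neutrophil-like (827 and 540.0 CPM) and T-like cells (72.03 and 57.9 CPM). Its neighbor *Ifitm1*, a cell surface member of the family, stood at 1335 and 1232 CPM in neutrophil-like and 288 and 292 CPM in conventional DC-like cells and 12.1 and 9.95 CPM in monocyte/macrophage-like cells, which held 11.6% of its UMIs against 80.3% of those of *Ifitm2*. *Ifitm2* had 942 and 1074 CPM in neutrophil-like, 511 and 494 CPM in conventional DC-like and 17.2 and 22.8 CPM in T-like cells. *Ifitm6* had 170.2 and 161 CPM, 139 and 172 CPM and 7.83 and 5.26 CPM in the same order of classes. The Ifi200 members, which code for DNA-binding proteins, parted as well. *Ifi204* belonged to monocyte/macrophage-like cells (338 and 389 CPM), ahead of neutrophil-like (225 and 137 CPM) and conventional DC-like cells (87.1 and 93.2 CPM). *Ifi205* was highest in conventional DC-like cells (99.1 and 122 CPM, against 53.6 and 51.1 CPM in monocyte/macrophage-like cells), and T-like cells held 12 and 3 UMIs of *Ifi204* and 4 and 0 UMIs of *Ifi205*.

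Neutrophil-like cells had the highest level of *Rsad2* (viperin, which makes a chain-terminating nucleotide), at 1689 and 1051 CPM against 233 and 211 CPM in monocyte/macrophage-like cells. *Isg15*, a ubiquitin-like protein that is joined to other proteins, had 1361 and 684 CPM there and 182 and 131 CPM in monocyte/macrophage-like cells. The Schlafen gene *Slfn1*, a regulator of growth in T cells, had 732 and 579 CPM in neutrophil-like and 84.1 and 92.2 CPM in monocyte/macrophage-like cells. By the mean CPM of both libraries this was a difference of 7.43-fold, and that of *Slfn4* was 7.67-fold. *Slfn5* differed by 1.01-fold between these classes. *Mx1* was highest in migratory DC-like cells. The C57BL/6 allele is annotated as a transcribed pseudogene, so its transcripts make no working GTPase. *Samhd1*, which breaks down the nucleotides that viruses need, was found in every named class. It had 582 and 691 CPM in monocyte/macrophage-like, 986 and 854 CPM in neutrophil-like and 852 and 686 CPM in T-like cells. Control NK-like cells were lowest, at 210 CPM.

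In monocyte/macrophage-like cells as a whole, the members did not lie to one side between the libraries. The summed level was 7301 and 7629.6 CPM, and the ratio of control to NK cell-depleted was 0.957 (0.95 to 0.964), where the brackets hold the exact 95% interval, which covers counting error only. All 42 members had at least 50 UMIs there, 21 with a ratio above 1 and 21 below, and the median log2 ratio was -0.0014 against -0.03 over 10683 genes. A ratio of at least 1.5 was found for 3 members (*Ifit1bl1*, *Ifit3* and *Oas1g*), where 5.77% of all genes were that much higher in the control library. *Ifitm6* alone was as much lower, where 3.04% of all genes were. The counting interval lay above 1 for 14 members and below 1 for 17.

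The Ifit genes stood on the high side. Their proteins bind viral RNA that lacks the host's cap methylation and keep it from being translated. *Ifit1* had 70.1 and 51.4 CPM in monocyte/macrophage-like cells, a ratio of 1.36 (1.25 to 1.48). *Ifit2* had 66.6 and 47.1 CPM and *Ifit3* 41.8 and 27.1 CPM, with ratios of 1.41 (1.3 to 1.54) and 1.54 (1.38 to 1.73). The sparser *Ifit3b* (5.43 and 3.75 CPM) and *Ifit1bl1* (9.75 and 4.19 CPM) had ratios of 1.45 (1.06 to 1.995) and 2.33 (1.77 to 3.08). All 5 were thus higher in control, and their sum had a ratio of 1.45 (1.38 to 1.53). The same sum was higher in control neutrophil-like cells, at 1.52 (1.25 to 1.85), in conventional DC-like cells, at 1.75 (1.41 to 2.16), and in T-like cells, at 2.94 (1.95 to 4.54). Migratory DC-like cells, with 37 and 55 Ifit UMIs, went the other way, at 0.579 (0.371 to 0.895).

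By gene, *Ifit1* had 229.9 and 206 CPM in neutrophil-like cells, a ratio of 1.11 (0.852 to 1.45) that its counts cannot set apart from 1. *Ifit3* there had 135 and 38.7 CPM, a ratio of 3.48 (2.14 to 5.84), and its copy *Ifit3b* 55.3 and 24.2 CPM, a ratio of 2.29 (1.16 to 4.66). *Ifit2* was level in neutrophil-like cells (48.6 and 46.7 CPM) and differed in conventional DC-like cells, with 35.1 and 10.8 CPM and a ratio of 3.25 (2.08 to 5.23). In conventional DC-like cells *Ifit1* had 47.1 and 29.6 CPM and *Ifit3* 13.8 and 13.2 CPM, with ratios of 1.59 (1.17 to 2.17) and 1.04 (0.618 to 1.76). T-like cells held 41 and 21 UMIs of *Ifit1* (ratio 1.74, 1.01 to 3.1), 18 and 5 UMIs of *Ifit2*, 23 and 0 UMIs of *Ifit3* and 17 and 4 UMIs of *Ifit1bl1*. Against the 3 UMIs that a count of 0 allows per library, *Ifit3* was at least 6.84-fold higher in control T-like cells as counted, and the exact lower limit of its ratio was 5.13. *Ifit1bl1* and *Ifit3b* were sparse elsewhere, with 6 and 1 UMIs of *Ifit1bl1* in neutrophil-like and 9 and 11 UMIs in conventional DC-like cells, and with 6 and 2 UMIs of *Ifit3b* in conventional DC-like and 3 and 1 UMIs in T-like cells.

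The Oas family was split. Oas enzymes sense double-stranded RNA and make 2′-5′-linked oligoadenylates, which turn on RNase L. The *Oas1* copies were higher in control monocyte/macrophage-like cells, *Oas1a* with 14.9 and 10.9 CPM (ratio 1.36, 1.13 to 1.64) and *Oas1g* with 4.9 and 2.99 CPM (ratio 1.64, 1.16 to 2.33). *Oas2* had 42.6 and 57.7 CPM and *Oasl2* 131 and 179 CPM, and both were lower, with ratios of 0.739 (0.673 to 0.81) and 0.732 (0.695 to 0.772). The longest enzyme *Oas3* (83.2 and 91.1 CPM) and *Oasl1* (39.3 and 40.9 CPM), an inhibitor of *Irf7* translation, lay between, at 0.914 (0.852 to 0.979) and 0.96 (0.866 to 1.06). With clusters pooled the family sum was lower in control, at 0.826 (0.798 to 0.855), but higher when each cluster had the same weight (log2 ratio 0.30), and it was lower in conventional DC-like cells, at 0.765 (0.669 to 0.874), where *Oasl2* had 63.98 and 109 CPM and a ratio of 0.586 (0.475 to 0.72) and *Oas2* 23.99 and 35.2 CPM and one of 0.682 (0.476 to 0.967). In T-like cells the family was on the high side, with a family ratio of 2.59 (1.68 to 4.09), 76.7 and 35.1 CPM of *Oas3* (ratio 2.19, 1.28 to 3.88) and 36.01 and 12.3 CPM of *Oasl2* (ratio 2.93, 1.22 to 8.09).

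In neutrophil-like cells the Oas sum had a ratio of 1.14 (1.001 to 1.3), and the counting interval of no single member with enough UMIs for one excluded 1: *Oasl2* had 530.4 and 499.7 CPM, *Oas3* 223 and 179 CPM, *Oasl1* 97.2 and 78.99 CPM and *Oas2* 72.9 and 58.03 CPM, with ratios from 1.06 to 1.26. *Oas1a* (5 and 2 UMIs) and *Oas1g* (0 and 0 UMIs) were at the limit of detection there. Conventional DC-like cells held 55.1 and 57.6 CPM of *Oas3*, 12.9 and 7.2 CPM of *Oasl1* and 10.2 and 7.2 CPM of *Oas1a*, each within counting error between the libraries, and 2 and 5 UMIs of *Oas1g*. T-like cells held 5 and 1 UMIs of *Oas2*, 4 and 1 UMIs of *Oasl1*, 2 and 0 UMIs of *Oas1a* and 1 and 0 UMIs of *Oas1g*.

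The Ifi200 and Ifitm sums were slightly lower in control monocyte/macrophage-like cells with clusters pooled, at 0.889 (0.862 to 0.918) and 0.935 (0.922 to 0.949), and higher with the same weight for each cluster, at log2 ratios of 0.41 and 0.39. *Ifi204* had a ratio of 0.868 (0.839 to 0.898) and *Ifi205* one of 1.05 (0.96 to 1.15). Within the Ifitm family, *Ifitm6* was furthest from 1, with 110.3 and 178 CPM and a ratio of 0.62 (0.586 to 0.655), *Ifitm3* had 0.916 (0.9003 to 0.932), and *Ifitm2* (489 and 437 CPM) was on the other side at 1.12 (1.09 to 1.15). *Ifitm1*, sparse in this class, had 1.22 (1.0003 to 1.49). In neutrophil-like cells *Ifitm3* was higher in control, at 1.53 (1.32 to 1.78), and *Ifitm2* lower, at 0.877 (0.775 to 0.992), while *Ifitm1* and *Ifitm6* were within counting error. *Ifi204* was higher there, at 1.65 (1.22 to 2.22), and *Ifi205* counted 19 against 1 UMI, a ratio of 26.05 (4.14 to 1082).

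The Isg15 system was, like the Ifit genes, on the high side. In monocyte/macrophage-like cells *Isg15* had a ratio of 1.38 (1.31 to 1.46), its ligase *Herc6* (43.99 and 38.4 CPM) one of 1.15 (1.04 to 1.27) and the protease *Usp18*, which strips Isg15 from proteins and dampens IFNAR (42.9 and 42.8 CPM), one of 1.003 (0.908 to 1.11). Their sum was at 1.26 (1.21 to 1.32). *Isg15* was higher in control in these classes too, with 104 and 74.4 CPM in conventional DC-like cells (ratio 1.39, 1.14 to 1.7) and 102 and 31.6 CPM in T-like cells (ratio 3.22, 1.89 to 5.77).

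The other effectors spread to both sides in monocyte/macrophage-like cells. Higher in control were *Isg20*, an RNA exonuclease, with 16.6 and 12.9 CPM (ratio 1.28, 1.08 to 1.52), *Bst2* (tetherin, which holds budding virus on the cell), with 347 and 308 CPM (ratio 1.13, 1.09 to 1.17), and *Rsad2* (ratio 1.1, 1.06 to 1.15). Lower were *Ifi44*, with 14.3 and 19.4 CPM (ratio 0.738, 0.628 to 0.867), *Rtp4*, with 75.3 and 93.95 CPM (ratio 0.801, 0.746 to 0.86), and *Trim30a*, an inhibitor of Toll-like receptor signaling, with 254 and 308 CPM (ratio 0.826, 0.794 to 0.858). *Ifi35* (48.3 and 58.4 CPM, ratio 0.826, 0.755 to 0.903) and *Samhd1* (ratio 0.842, 0.821 to 0.864) were lower as well. The member with the most UMIs, *Ifi27l2a*, a small interferon-induced membrane protein, was within counting error (1461 and 1442 CPM, ratio 1.01, 0.996 to 1.03), and so was *Parp14*, an ADP-ribosyltransferase (129 and 128 CPM, ratio 1.01, 0.953 to 1.07).

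The sensors stayed close to 1 in this class. The Z-form nucleic acid sensor *Zbp1* (103 and 118 CPM) had a ratio of 0.871 (0.818 to 0.926), *Dhx58* (LGP2) one of 0.89 (0.808 to 0.98), and the RNA sensors *Ifih1* (MDA5) and *Ddx58* (RIG-I) ratios of 0.961 (0.889 to 1.04) and 1.03 (0.945 to 1.11). The Schlafen genes ranged from 0.862 (*Slfn4*) to 0.995 (*Slfn8*), with *Slfn1* at 0.913 (0.852 to 0.978) and *Slfn5*, with 377 and 416 CPM, at 0.905 (0.876 to 0.935). *Mx1* had a ratio of 0.867 (0.781 to 0.963), and *Cmpk2*, *Xaf1* and *Phf11d* lay between 0.925 and 1.07. Of the matched members, the 18 with an ISRE match had a median log2 ratio of 0.15 (range -0.28 to 1.21) and the 15 without one of -0.11 (range -0.69 to 0.50), a description without a test.

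Within the clusters of this class the picture was another. All 10 named monocyte/macrophage-like clusters had a higher summed level of the members in the control library, with ratios from 1.19 to 1.76 and median log2 ratios from 0.067 to 1.001. The cluster led by *Ly6c2* and *Ms4a4c*, genes of inflammatory monocytes, had 17478 and 12219 CPM, a ratio of 1.43 (1.41 to 1.45). The cluster led by *Chil3* and *Hp* had 15179.6 and 10688 CPM (ratio 1.42, 1.38 to 1.46). That led by *Ccl8* and *Lyve1*, genes of resident macrophages, had 13442 and 9949.8 CPM (ratio 1.35, 1.33 to 1.37). That led by *Ace*, *Ldlrad3*, *Chil3* and *Adgre4* had 13349.8 and 11083 CPM (ratio 1.2, 1.17 to 1.24). *Ace* and *Adgre4* are genes of patrolling monocytes, but *Chil3*, *Cd177* and *Hp*, which also lead the *Chil3*- and *Hp*-led cluster, were among its 10 leading genes. It is therefore not given a monocyte type. These 4 clusters had the highest levels in both libraries. The clusters led by *Gpnmb* and *Spp1* and by *Spint1* and *Htra3* were lower, at 4382 and 2707 CPM (ratio 1.62, 1.58 to 1.66) and 4423 and 3109 CPM (ratio 1.42, 1.38 to 1.47). The remaining 4 lay between 2164 and 6995 CPM, with ratios of 1.42 (1.36 to 1.49), 1.22 (1.18 to 1.26), 1.76 (1.64 to 1.9) and 1.19 (1.05 to 1.35).

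The exception was a cluster left without a name. Led by *Lgmn* and *Cd72* (200 and 118 cells), it had its highest marker score as monocyte/macrophage (4.77, next list 2.16). Its cells were shallow, at 28.6% and 26% of the median UMIs of their libraries, and none of its 10 leading genes was a marker. The last also held for named clusters, such as the *Gpnmb*-led and *Ccl8*-led ones. Its depth thus kept it without a name, under limits set after the clusters were seen. Its members summed to 8289 and 9135 CPM, lower in control, at a ratio of 0.907 (0.851 to 0.968), and its Ifit sum had one of 0.69 (0.445 to 1.07).

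The clusters were not sampled alike. The 4 clusters of the highest level, singled out after their values were seen, held 28.8% of control and 55.6% of NK cell-depleted cells of the class, and the *Ly6c2*-led cluster alone 9.70% and 26.7%. With each cluster given the same weight in both libraries, the median log2 ratio of the members was 0.51, against -0.05 over all genes, and 41 of 42 members had a ratio above 1. Of the members, 14 were then at least 1.5-fold higher in control and 0 as much lower, where 4.9% and 4.13% of all genes were. *Ifitm1* was the exception, at a log2 ratio of -0.33. With the shallow unnamed cluster added, for 11 clusters of equal weight, the median was 0.41, with 41 members above a ratio of 1 and 12 at least 1.5-fold higher. Without the *Ly6c2*-led cluster and with no weights, the median was 0.16, and 30 members were above and 12 below a ratio of 1.

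**Figure D2:**
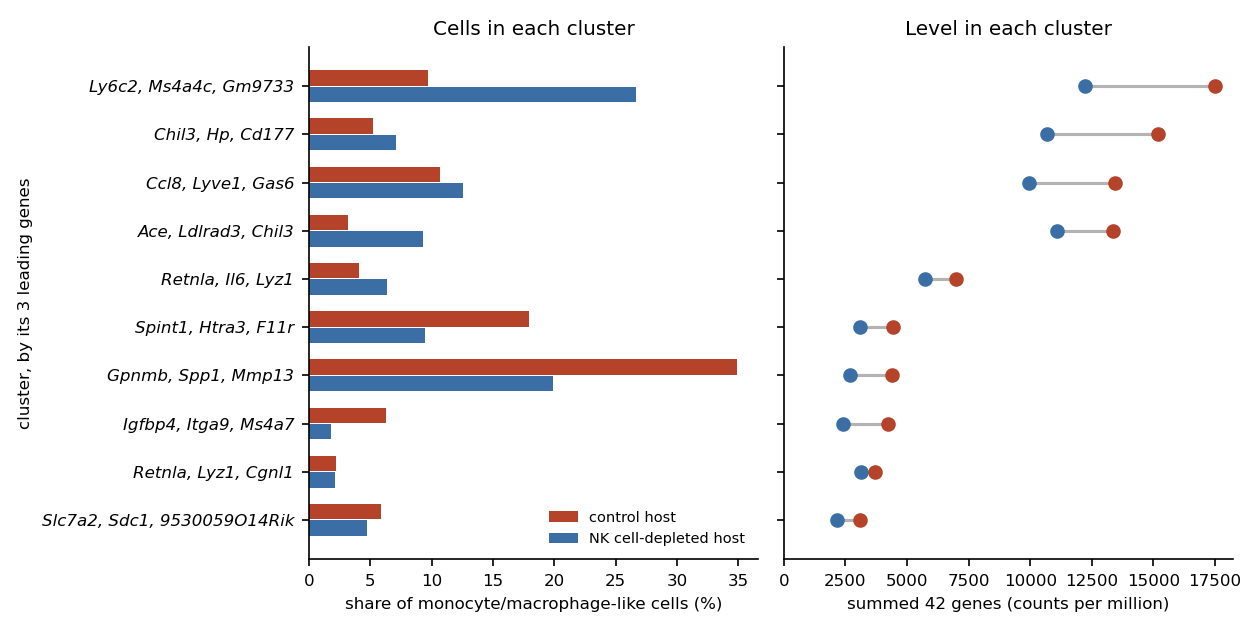
Share of monocyte/macrophage-like cells (percent) and summed level of the 42 members (CPM) in each of the 10 clusters, by library. The level is higher in the control library in all 10 named clusters, while the *Ly6c2*-led cluster, which has the highest level, holds 9.70% of control and 26.7% of NK cell-depleted cells of the class.

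With equal weights the Ifit sum again had the highest ratio and the Oas sum the lowest of the 4 family sums. The log2 ratio was 1.21 for the Ifit sum, 0.41 for Ifi200, 0.39 for Ifitm and 0.30 for Oas, so the Oas, Ifi200 and Ifitm sums lay on the control side and the Ifit sum was higher still. *Ifit1bl1* had 1.93, *Ifit3* 1.31, *Ifit1* 1.19, *Isg15* 1.16, *Ifit2* 1.08, *Isg20* 1.02 and *Oas1g* 1.002. *Oas2*, *Ifitm6* and *Oasl2* lay near 0, at 0.074, 0.095 and 0.13. Among the clusters the Ifit sum had a ratio of 2.48 (2.08 to 2.96) in the *Gpnmb*-led, 2.39 (2.21 to 2.59) in the *Ly6c2*-led, 2.24 (2.01 to 2.5) in the *Ccl8*-led and 2.76 (2.28 to 3.35) in the *Chil3*- and *Hp*-led cluster. In the *Ace*-led cluster it was 1.13 (0.834 to 1.52), and the Oas sum there was lower in control, at 0.813 (0.685 to 0.96), the only Oas ratio of the 10 whose interval lay below 1. In the cluster led by *Slc7a2* and *Sdc1*, with 43 and 35 Ifit UMIs, the Ifit ratio was 0.959 (0.5995 to 1.54), the only one of the 10 below 1. The cluster led by *Igfbp4* and *Itga9* counted 106 Ifit UMIs in 204 control cells and 1 in 54 NK cell-depleted cells.

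Genes other than the members that interferon also raises entered the clustering, for example *Ms4a4c* and *Plac8*. When the 200 further genes that correlated most with the members were also left out, the equal-weight median was 0.44, with 40 members above and 2 below a ratio of 1, and each of the 10 clusters then formed had a higher sum in the control library, by 1.05- to 2.05-fold. At the finer clustering of resolution 2, it was 0.47, with all 42 members above. NK cell transcripts also differed in these cells: the 8 NK markers summed to 15.6 CPM in control and 0.652 CPM in NK cell-depleted monocyte/macrophage-like cells, where *Ncr1*, *Eomes*, *Gzma*, *Prf1*, *Klra8* and *Nkg7* were at 0. Control NK-like cells held 1339.9 CPM of the members. What part NK cell transcripts had in the ratios was not tested.

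**Figure D3:**
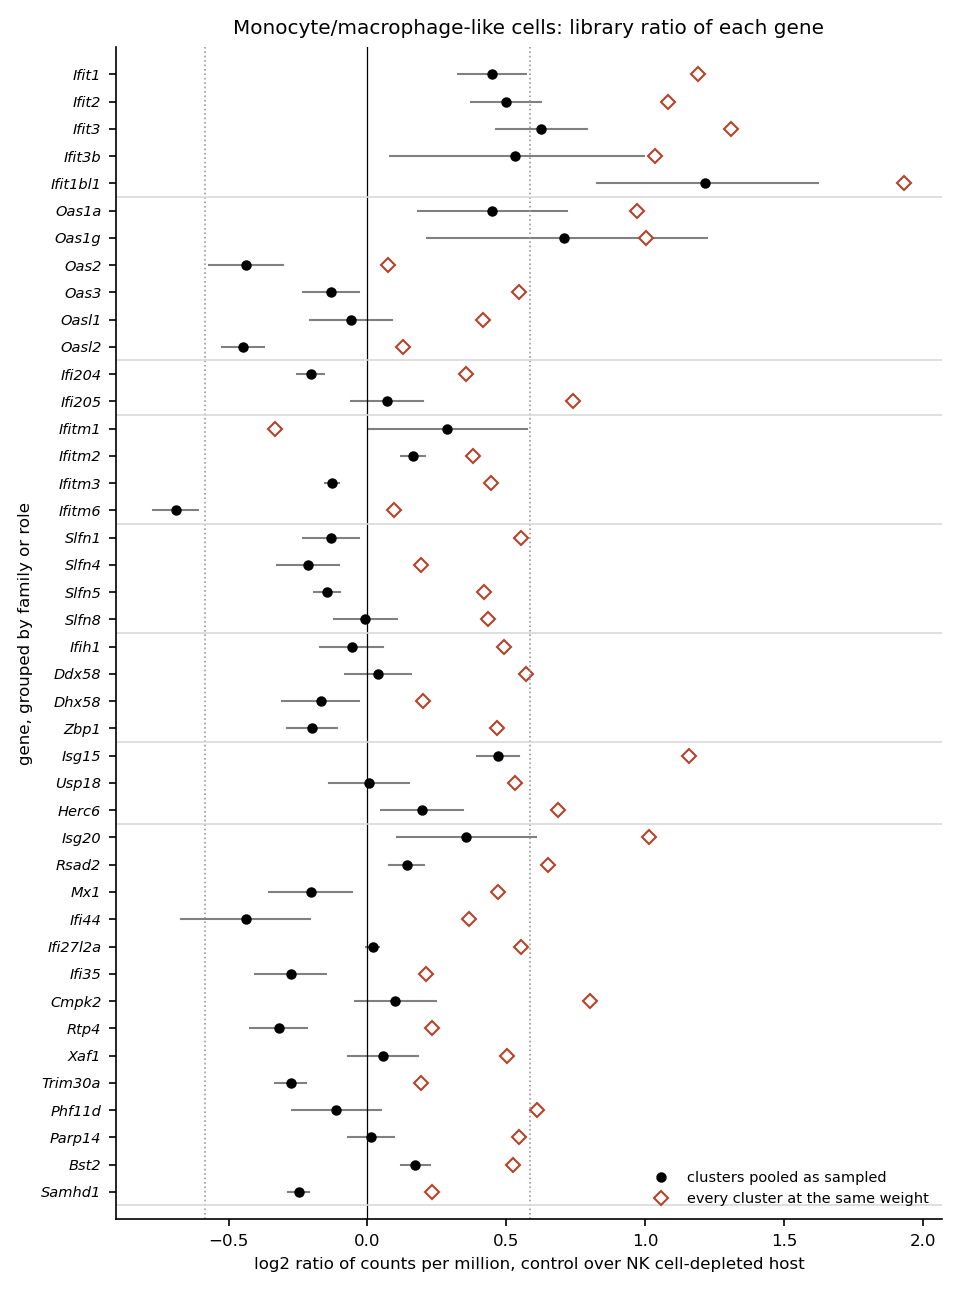
Log2 ratio of control to NK cell-depleted of each member in monocyte/macrophage-like cells, with clusters pooled as sampled and with the same weight for each cluster. Pooled, 21 members lie on each side of 0; with equal weights 41 lie above it, and *Ifit1bl1* is furthest up at 1.93.

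Neutrophil-like cells had more of the members in the control library. Their summed level had a ratio of 1.32 (1.28 to 1.37), and without *Ifi27l2a* and *Ifitm3* one of 1.31 (1.26 to 1.36). *Bst2* had 99.5 and 19.3 CPM, a ratio of 5.14 (2.67 to 10.7), *Isg15* one of 1.99 (1.76 to 2.26) and *Rsad2* one of 1.61 (1.45 to 1.79). *Isg20* (128 and 75.8 CPM, ratio 1.69, 1.13 to 2.54) and *Ifi27l2a* (1156 and 822 CPM, ratio 1.41, 1.24 to 1.59) were higher as well. Smaller ratios were those of *Slfn5* (455 and 330.5 CPM, ratio 1.38, 1.13 to 1.68), *Slfn1* (ratio 1.26, 1.09 to 1.47), *Trim30a* (601 and 506 CPM, ratio 1.19, 1.01 to 1.4) and *Samhd1* (ratio 1.15, 1.01 to 1.31). *Rtp4* (296 and 253 CPM), *Zbp1* (68.5 and 53.2 CPM), *Parp14* (102 and 72.5 CPM) and *Ifi35* (44.2 and 46.7 CPM) were within counting error, and *Ifi44* had 4 and 0 UMIs.

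Of the 42 members, 30 had at least 50 UMIs in neutrophil-like cells, and 10 of these were at least 1.5-fold higher in control and 0 as much lower, where 8.08% and 6.58% of all 2858 genes were. Members pass this minimum more readily when 1 library is high, so the sum over all 42 is the fuller account. Transcripts of the 20 monocyte/macrophage markers were also at a higher level in control neutrophil-like cells, at 1337 against 1127 CPM, with *Ace* at 0 in both libraries and *Vcan* at 0 in the NK cell-depleted one, and they were at 18439 and 18776 CPM in their own class. In the 124 and 162 neutrophil-like cells with no UMI of these markers, the summed members had a ratio of 1.43 (1.35 to 1.52) against 1.32 in all cells of the class. A smaller unnamed cluster of high neutrophil marker score, led by *Gm5483* and *Hcar2* (51 and 32 cells), had a ratio of 1.01 (0.83 to 1.22).

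T-like cells showed the widest gap of the 6 classes that both libraries held. Their summed level was 4021 and 2212 CPM, a ratio of 1.82 (1.7 to 1.95), and without *Ifi27l2a* and *Ifitm3* one of 1.61 (1.49 to 1.74). *Ifi27l2a* had 1116 and 393 CPM, a ratio of 2.84 (2.44 to 3.32), *Rsad2* 105 and 21.05 CPM and 4.98 (2.67 to 10.1), and *Zbp1* 125 and 50.9 CPM and 2.46 (1.59 to 3.91). *Isg20* had 24 and 7 UMIs (ratio 3.06, 1.28 to 8.41) and *Bst2* 188 and 89.5 CPM (ratio 2.1, 1.5 to 2.97). *Samhd1* was higher by less, at 1.24 (1.09 to 1.42). *Slfn5* (135 and 107 CPM), *Slfn1* (84.6 and 87.7 CPM), *Trim30a* (218 and 167 CPM), *Parp14* (95.5 and 64.9 CPM), *Rtp4* (45.4 and 26.3 CPM) and *Ifi35* (46.97 and 40.3 CPM) were within counting error, as was *Ifitm3*, and *Ifi44* had 0 and 1 UMIs. *Ifitm1*, *Ifitm2* and *Ifitm6* counted 8 and 6 UMIs, 11 and 13 UMIs and 5 and 3 UMIs.

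With 17 of 42 members at 50 UMIs or more in T-like cells, 9 were at least 1.5-fold higher in control and 0 as much lower, where 8.21% and 6.1% of all 3884 genes were. The T-like cells of the libraries also differed in other ways, at medians of 2083 and 2342.5 UMIs per cell. *Cd8a*, of cytotoxic T cells, had 83.0 and 33.3 CPM, *Cd4* 124 and 165, and *Foxp3*, of regulatory T cells, 105 and 70.2. Among T-like cells without a *Cd8a* UMI (260 and 211 cells), the summed members had a ratio of 1.71 (1.597 to 1.84), and among the 25 and 13 cells with one they were at 5015 and 1243 CPM, a ratio of 4.03 (2.95 to 5.64). The 20 monocyte/macrophage markers summed to 1600.2 and 912 CPM in T-like cells, with *Treml4* at 0 in both libraries and *Adgre4* at 0 in the NK cell-depleted one. In the 65 and 84 T-like cells with no UMI of these markers, the members were at 4034 and 2128 CPM, a ratio of 1.9 (1.66 to 2.17).

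**Figure D4:**
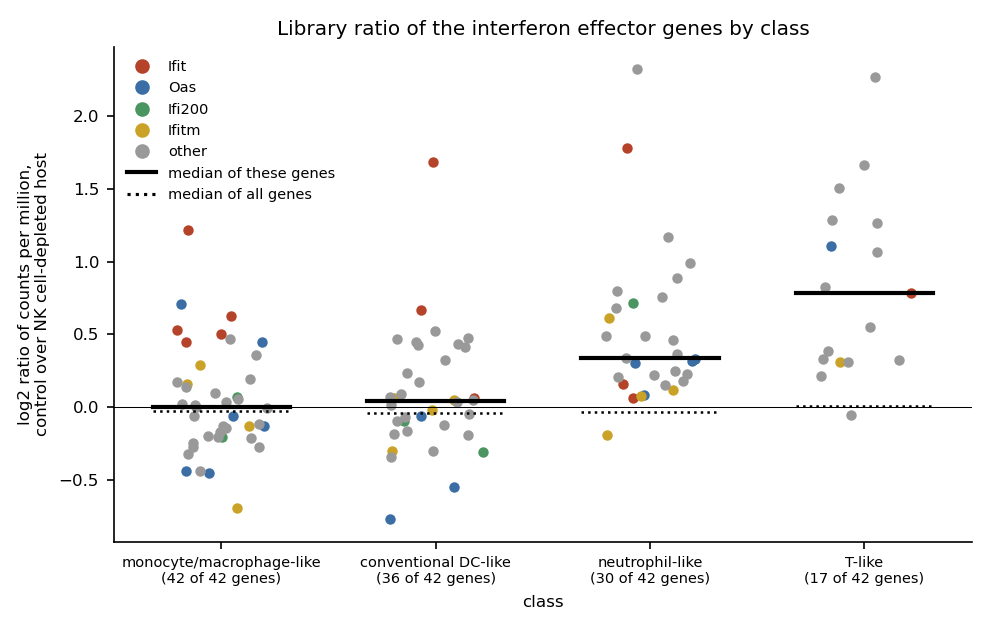
Log2 ratio of control to NK cell-depleted of the members with at least 50 UMIs in each class (points), with the median over them (line). Members with fewer UMIs are not drawn. Those of the T-like and neutrophil-like classes lie mostly above 0, whereas those of the monocyte/macrophage-like and conventional DC-like classes lie on both sides.

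Conventional DC-like cells were close to even, with a summed ratio of 1.03 (1.005 to 1.05). Among 36 members with at least 50 UMIs there, 2 (*Ifit1* and *Ifit2*) were at least 1.5-fold higher and 1 (*Oasl2*) as much lower in control, where 4.65% and 5.65% of all 7491 genes were. *Bst2* had 360.4 and 250.4 CPM, a ratio of 1.44 (1.29 to 1.6), and *Ifi35* 65.3 and 82.8 CPM, one of 0.789 (0.634 to 0.979). *Ifitm6* (ratio 0.81, 0.698 to 0.94) and *Ifi205* (ratio 0.809, 0.678 to 0.965) were lower. *Ifi27l2a* (763 and 736 CPM), *Samhd1* (465 and 481 CPM), *Slfn5* (304 and 330.4 CPM), *Trim30a* (281 and 267 CPM), *Rsad2* (71.98 and 61.2 CPM), *Parp14* (80.4 and 78.4 CPM) and *Zbp1* (63.1 and 62.4 CPM) were within counting error. So were *Ifi44* (23.5 and 18.8 CPM), *Isg20* (17.3 and 12.8 CPM), *Rtp4* (34.2 and 38.4 CPM) and *Slfn1* (16.4 and 18.8 CPM).

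The class was made of a pair of clusters, and *Ifitm1* went opposite ways in them. In the cluster led by *Cd209a* and *Flt3* (228 and 312 cells) it had 107 and 59.3 CPM, a ratio of 1.80 (1.40 to 2.32). In the cluster led by *Plet1* (130 and 65 cells), which has *Ifitm1* among its leading genes, it had 528 and 1286 CPM, a ratio of 0.411 (0.365 to 0.463). The summed members of the *Cd209a*-led cluster had a ratio of 1.21 (1.18 to 1.24) and those of the *Plet1*-led cluster one of 0.912 (0.864 to 0.963), and the Ifit sum was higher in control in both, at 1.74 (1.37 to 2.21) and 3.92 (2.03 to 8.50). In the *Plet1*-led cluster the Ifitm sum was at 0.649 (0.605 to 0.697) and the Oas sum at 0.789 (0.549 to 1.14). The sums of the other groups there were above 1: Ifi200 1.32 (0.852 to 2.10), Slfn 1.40 (1.07 to 1.86), the sensors 1.83 (1.27 to 2.70), the Isg15 system 1.70 (1.17 to 2.52) and the other effectors 1.44 (1.29 to 1.61). Migratory DC-like cells were even in sum (ratio 0.975, 0.905 to 1.05), and B-like cells, with 250 and 123 member UMIs, were at 1.24 (0.997 to 1.55). Without *Ifi27l2a* and *Ifitm3* the B-like ratio lay on the other side, at 0.763 (0.591 to 0.986).

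Cells with many of these genes at once were concentrated in a few clusters. Each cell was thinned to 1000 UMIs so that depth did not set the count, which left out 281 control and 243 NK cell-depleted cells, among them 96 and 73 neutrophil-like, 27 and 20 monocyte/macrophage-like and 11 and 10 T-like cells, and members with at least 1 UMI were counted. The median cell had 3 members in the control library and 4 in the other, and the most in a cell were 26 and 24. At least 10 members were found in 9.399% and 9.195% of all cells. The shares were 21.4% (16.7 to 26.8) and 13.1% (9.92 to 16.9) in neutrophil-like cells and 11.4% (10.3 to 12.5) and 10.5% (9.41 to 11.6) in monocyte/macrophage-like cells. In T-like cells they were 8 of 274 cells (2.92%, 1.27 to 5.67) and 1 of 214 (0.467%, 0.0118 to 2.58), and among 517 control NK-like cells 0, which allows up to 0.580%. The *Ptprc*-poor cluster had 0 of 36 and 0 of 48 such cells, and at most 2 and 3 members in a cell.

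Among monocyte/macrophage-like clusters the share was highest in the *Ly6c2*-led one, at 37.1% (31.8 to 42.7) and 21.9% (19.1 to 24.9). The *Chil3*- and *Hp*-led cluster had 32.9% (25.9 to 40.6) and 14.2% (9.8 to 19.7), the *Ccl8*-led one 28.99% (24.3 to 34.1) and 15.7% (12.2 to 19.8), and the *Gpnmb*-led one 3.76% (2.73 to 5.05) and 0.501% (0.103 to 1.46). In these 4 the intervals of the libraries did not overlap, nor did those of the *Spint1*-led cluster, at 3.44% (2.11 to 5.26) and 0.347% (0.00879 to 1.92). In the *Ace*-led cluster the intervals overlapped, with 14.4% and 15.2%. The *Ly6c2*-led cluster gave 24.8% of all such control cells and 45.2% of the NK cell-depleted ones, while it held 6.29% and 19.0% of all thinned cells.

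For the whole class the ratio of the shares was 1.08 (0.930 to 1.26) at this depth and 1.88 with equal weights of clusters. It was 0.885 for at least 7 members, 0.836 in cells thinned to 2000 UMIs and 0.850 in cells that were not thinned (50.4% and 59.3% of cells), so no order of the libraries is read from it. The class had 121 and 144 cells with 9 members and 82 and 81 with 10, so the limit cuts through a continuous range. *Ifit1* was found in 27.9% of control cells with at least 10 other members and in 0.168% of those with fewer than 3, and *Ifitm1* in 0.824% and 0.671%.

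**Figure D5:**
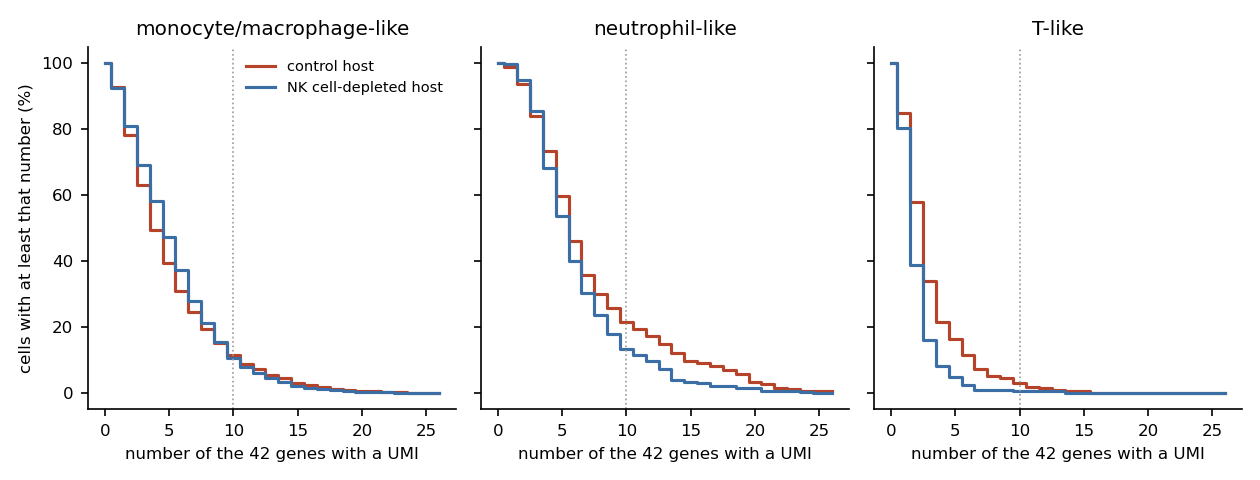
Share of cells (percent) with at least the given number of members, in cells thinned to 1000 UMIs, for monocyte/macrophage-like, neutrophil-like and T-like cells by library. At 10 members the control library is at 21.4% and the NK cell-depleted one at 13.1% in neutrophil-like cells, while the monocyte/macrophage-like curves cross.

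With clusters pooled, the rest of the pathway had a median close to even in monocyte/macrophage-like cells. This list and the lists below were not run with the same weight for each cluster. Of 25 genes of interferon signaling and its regulators, all had at least 50 UMIs, 0 were at least 1.5-fold higher in control and 1, the adaptor *Myd88* (79.0 and 119 CPM), as much lower, where 5.77% and 3.04% of all genes were, with a median log2 ratio of -0.10. The kinase *Jak1* had 211 and 241 CPM (ratio 0.874, 0.837 to 0.913), and the transcription factors *Irf5* 138 and 187 CPM (ratio 0.738, 0.701 to 0.777) and *Irf8* 229 and 207 CPM (ratio 1.11, 1.06 to 1.16). *Tyk2* had a ratio of 0.673 (0.608 to 0.745), just short of the limit, and *Socs3* one of 1.27 (1.2 to 1.34). Of the 7 ligand genes 0 had 50 UMIs in this class. *Ifnb1* counted 0 UMIs in control and 8 in NK cell-depleted cells, *Ifna1* and *Ifna2* 0 in both, and *Ifng* 4 and 1 here but 406 and 16 over all cells.

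Relatives of the members that the list leaves out had a median slightly below 0. Of 34 that were listed, 24 had at least 50 UMIs, with a median log2 ratio of -0.14, and 1 (*Ifi27*) was at least 1.5-fold higher and 3 (*Ifi211*, *Ifitm5* and *Phf11c*) as much lower in control, where 5.77% and 3.04% of all genes were. *Ifi207* had 211 and 263 CPM (ratio 0.802, 0.769 to 0.837), *Mndal* 203 and 207 CPM (ratio 0.978, 0.935 to 1.02), *Slfn2* 316 and 347 CPM (ratio 0.912, 0.88 to 0.945) and *Trim25*, a ligase of the RIG-I pathway, 202 and 276 CPM (ratio 0.733, 0.702 to 0.764).

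GTPases that answer to IFN-γ as well were on the high side. Of 10 guanylate-binding proteins listed, which attack vacuoles of microbes, 9 had at least 50 UMIs, 6 (*Gbp2*, *Gbp2b*, *Gbp4*, *Gbp5*, *Gbp6* and *Gbp8*) were at least 1.5-fold higher in control and 0 as much lower, against the same 5.77% and 3.04% of all genes, with a median log2 ratio of 0.89. *Gbp2* had 53.5 and 32.6 CPM (ratio 1.64, 1.48 to 1.82), *Gbp7* 102 and 73.3 CPM (ratio 1.39, 1.3 to 1.49), *Gbp3* 46.7 and 40.2 CPM (ratio 1.16, 1.05 to 1.28) and *Gbp9* 31.6 and 25.99 CPM (ratio 1.22, 1.08 to 1.37). Of 6 immunity-related GTPases, 5 had at least 50 UMIs and 1, *Iigp1*, was as much higher, with 20.3 and 5.33 CPM (ratio 3.82, 3.05 to 4.82). *Igtp* (ratio 1.28, 1.13 to 1.44) was higher by less, *Irgm1* (ratio 0.855, 0.781 to 0.937) lower, and *Irgm2* (ratio 0.93, 0.811 to 1.07) within counting error. Their promoters carried the ISRE core in 5 of 5 matched guanylate-binding genes and 5 of 5 matched immunity-related GTPases, and the GAS core in 2 and 4.

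The genes whose level over the 10 clusters and both libraries (20 points) was most like that of the summed members were *Sp100* and *Sp110*, nuclear body proteins, with Pearson's r of 0.979 and 0.965, *Ifi206*, with 0.954, and the class I genes *H2-T22* and *H2-T23*, both with 0.927. They were ranked among 6818 genes outside the lists, and the points share libraries and depth, so no p-value is given. Pooled over monocyte/macrophage-like cells, *H2-T23* had a log2 ratio of 0.33 and *Sp100* one of -0.29.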

How the data were processed

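Single-cell libraries of CD45+ leukocytes were compared, 1 of control and 1 of NK cell-depleted hosts, grouped by the sample titles. The authors deposited filtered matrices of UMI counts per gene and cell from Cell Ranger (3.0.2 in the file headers, another release in the study's methods), with build mm10 in the submitters' processing notes. The deposited table of log2 values per cell was not used. Symbols listed more than once (35) were taken at their first entry.

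Cells were filtered by the limits of the study. The 2000 most variable genes, as log2(CPM + 1) and without the members, the interferon lists and ribosomal genes, gave 15 principal components, 20 nearest neighbors and Leiden clusters at resolution 1 (scanpy 1.11.5, leidenalg 0.10.2, scikit-learn 1.9.0, numpy 2.4.6, scipy 1.17.1). A class was named where the mean log2 level of its fixed markers over the 5 clusters of the lowest level was at least 2.5 and led the next list by 0.8 or more, with that next list below 4, at least 3 of its own markers raised and no other list with more markers among the 10 leading genes. A cluster whose median UMI count was under 1/3 of that of its library, with none of its markers among those 10 genes, stayed unnamed. These limits were set after the clusters were seen, and rebuilt names can differ from those of the study. Scrublet called 1 control and 5 NK cell-depleted cells, too few to have worked, so doublets were kept and alternatives left out suspect cells.

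For each class and library, UMIs were summed and divided by the total. Log2 ratios had 0.5 UMI added to each sum. Sums carry exact Poisson, ratios exact conditional binomial and shares exact binomial (Clopper-Pearson) 95% intervals, which cover counting error only. A count of 0 allows up to 3 counts. With 1 library per group no test and no p-value was possible, and depth differed (medians of 4170 and 4893 UMIs per cell). The calculation of ratios, intervals and calls was checked on simulated counts with known folds.

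The members, lists and comparisons were chosen with earlier results of these data known. Values are given for the 4 families, for the 10 other members with the most UMIs and the 6 others with the largest ratios in monocyte/macrophage-like cells, for 4 genes of each list (fewer where a gene is not reported here) and for the 5 genes most like the summed members. Genes named beyond this rule (*Myd88*, *Tyk2*, *Socs3*, *Ifi27*, *Ifi211*, *Ifitm5*, *Phf11c*, other Gbp genes and members outside these sets) were named after their values were seen. A member with under 20 UMIs in a class got its counts and no ratio. Alternatives varied the cell filter, doublets, resolution, thinning, scaling, count minimum and the weight of clusters.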

Additional observations from a re-analysis of the deposited data

Results flagged for a closer look

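Some members lay on opposite sides of a ratio of 1 in different cells, with counting intervals that each excluded 1, and these differences were not tested. In T-like cells *Oas3*, *Zbp1* and *Samhd1* had ratios of 2.19, 2.46 and 1.24 of control to NK cell-depleted, against 0.914, 0.871 and 0.842 in monocyte/macrophage-like cells. In neutrophil-like cells *Ifi204* (1.65), *Ifitm3* (1.53), *Slfn5* (1.38), *Slfn1* (1.26), *Trim30a* (1.19) and *Samhd1* (1.15) were higher in control and lower in monocyte/macrophage-like cells (0.868, 0.916, 0.905, 0.913, 0.826 and 0.842). The monocyte/macrophage-like side of these results holds with clusters pooled. With the same weight for each cluster, the log2 ratios there were above 0, on the side of the other class, at 0.55 for *Oas3*, 0.46 for *Zbp1*, 0.23 for *Samhd1*, 0.36 for *Ifi204*, 0.45 for *Ifitm3*, 0.42 for *Slfn5*, 0.55 for *Slfn1* and 0.19 for *Trim30a*. *Ifitm2* was the reverse, at 0.877 in neutrophil-like and 1.12 in monocyte/macrophage-like cells, and there also at a log2 ratio of 0.38 with equal weights. *Ifitm1* had a ratio of 1.80 in the conventional DC-like cluster led by *Cd209a* and of 0.411 in the one led by *Plet1*.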

How the results depend on the processing

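No paired analysis was possible because each group is 1 library. The values below concern monocyte/macrophage-like cells and are log2 ratios unless named otherwise. The reported ones are -0.0014 for the median, 0.54 for Ifit, -0.28 for Oas, -0.17 for Ifi200 and -0.10 for Ifitm, with 3 members at least 1.5-fold higher and 1 lower. Equal weight of clusters gave a median of 0.51, 14 higher and 0 lower, 1.21 for Ifit, 0.30 for Oas, 0.41 for Ifi200, 0.39 for Ifitm and, reversed, 0.095 for *Ifitm6*. With the 200 further genes also left out of the clustering, these were 0.44, 13, 0, 1.08, 0.24, 0.30, 0.39 and 0.026. At resolution 2 with equal weight they were 0.47, 12, 0, 1.15, 0.27, 0.31, 0.41 and 0.055. With the shallow unnamed cluster added, equal weight gave 0.41, 12, 0, 0.98, 0.22, 0.33, 0.35 and 0.039, while pooled it gave -0.014 and the other pooled values as reported, except 0.52 for Ifit. Without the *Ly6c2*-led cluster, the median was 0.16, 7 were higher, and Ifit, Oas, Ifi200 and Ifitm were at 0.77, -0.096, 0.036 and 0.0030. By construction these settings change only how much each cluster counts or which cells form it. Resolution 2 alone gave 5 higher, and 0.61, -0.21, -0.10 and -0.044 for the families, while thinning to 1000 UMIs gave 5 higher, 2 lower, 0.65 for Ifit and -0.089 for Ifi200. Oas and Ifitm were at -0.34 and -0.15 without suspected doublets and at -0.33 and -0.13 at resolution 0.5. Ifitm was at -0.071 when scaled by the median ratio of all genes and at -0.12 without the highest 5% of Scrublet scores. For these moves the cause was not tested. The ratio of shares of cells with at least 10 members, 1.08, was 0.885 at 7 members, 0.836 thinned to 2000 UMIs, 0.850 without thinning, 1.88 with equal weight, 1.78 with the 200 genes also out, 1.80 at resolution 2 with equal weight, 1.75 with the shallow cluster and equal weight and 1.36 without the *Ly6c2*-led cluster.

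The T-like median log2 ratio over members past the count minimum was 0.78 and the neutrophil-like one 0.33. Both stayed above 0 under each alternative run, from 0.38 to 1.09 and from 0.25 to 0.46. The T-like medians rest on few members: 17 as reported, 5 in thinned cells, and 3 each at a count minimum of 200 and without cells holding a monocyte/macrophage marker. With no count minimum all 42 entered. Members pass a minimum more readily when 1 library is high, so these medians cannot show that the ratio is robust. The alternatives with the 200 further genes, with resolution 2 and equal weight, without the *Ly6c2*-led cluster, with the shallow unnamed cluster, without the highest Scrublet scores and without cells holding a monocyte/macrophage marker were chosen after seeing the data. Counts limit *Ifit3b*, *Ifit1bl1*, *Oas1g* and most T-like and neutrophil-like ratios of single genes, and 1 library per group limits all of them.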

Other observations

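A few cells held most UMIs of the scarcer members. In monocyte/macrophage-like cells of both libraries, the tenth of cells with the most UMIs of *Ifit1* gave 87.6% of its UMIs, and that of *Ifitm3* 35.0%. The 5 cells with the most UMIs gave 6.37% for *Ifit1*, 12.3% for *Ifit1bl1* and 16.8% for *Ifitm1*. Leaving out the 5 cells of each library with the most member UMIs moved the median log2 ratio of the class to -0.0082.

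Besides the one led by *Lgmn* and *Cd72*, the unnamed clusters had summed member ratios with an interval that held 1, apart from the one led by *Alox15* and *Ccr3* (14 and 68 cells), at 2.05 (1.54 to 2.71). That ratio rests on 81 and 143 member UMIs in cells at 20.6% and 13.1% of the median UMIs of their libraries. The 1 member with at least 50 UMIs there lay on the other side, at a log2 ratio of -0.099. An unnamed cluster with high scores of both neutrophil and monocyte/macrophage markers (17 and 21 cells) held 7772 and 8053 CPM of the members, above the monocyte/macrophage-like class, as did the *Lgmn*- and *Cd72*-led one, at medians of 1194.5 and 1274.5 UMIs per cell.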
